A study of Mus musculus with 20 samples.

Results

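The comparison described here is ptaquiloside alone against control in natural killer (NK) cells of the mouse spleen. It rests on 9 of the 20 arrays of the series, 1 array per mouse: control mice 1 to 5 and ptaquiloside mice 1, 2, 3 and 5. The array of ptaquiloside mouse 4 was left out because it was dim, as described with the data quality. All mice were male C57BL/6 animals, whose age the labels do not give. Control mice received water by gavage daily for 14 days, and ptaquiloside mice received ptaquiloside at 5.3 mg/kg by the same route and schedule. The other 10 mice of the series received selenium at 1.3 mg/kg, alone or together with the same dose of ptaquiloside, and are used here only to set the effect of ptaquiloside beside its effect in mice that also had selenium. NK cells were collected untouched, by removing the other spleen cells on magnetic columns, so other cells that escaped removal remain in the sample.

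Ptaquiloside is a glucoside of bracken fern that causes tumours in grazing animals. It loses its sugar easily, and the dienone left over alkylates DNA. NK cells are innate lymphocytes that kill transformed and infected cells with perforin and granzymes and secrete interferon gamma. Metallothioneins are small cysteine-rich proteins that bind zinc and copper, and the transcription factor Mtf1 switches on Mt1 and Mt2 when free zinc rises. The aryl hydrocarbon receptor is a ligand-activated transcription factor that pairs with Arnt. Ahrr, which represses the receptor, and Tiparp, an ADP-ribosyltransferase that also dampens it, are among its best-known targets.

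The promoters of the genes of these 2 systems that the results return to are shown here, because Ahrr and Tiparp carried some of the larger differences and Mt1 and Mt2 are the genes that the study followed up at the protein level. Each line gives the 250 bases before the transcription start as held by RefSeq for build GRCm38.p6, read 5′ to 3′ on the gene's strand. Capitals in Ahrr and Tiparp mark the core of the xenobiotic response element, GCGTG, and capitals in Mt1 and Mt2 mark the core of the metal response element, TGCACNC or TGCGCNC, each searched on both strands.
Ahrr, chr13:74292332-74292581, minus strand: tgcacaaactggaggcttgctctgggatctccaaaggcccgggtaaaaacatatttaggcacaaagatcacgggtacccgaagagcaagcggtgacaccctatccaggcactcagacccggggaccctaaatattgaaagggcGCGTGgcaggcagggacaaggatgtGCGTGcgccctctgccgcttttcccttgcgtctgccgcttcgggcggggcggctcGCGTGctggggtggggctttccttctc
Tiparp, chr3:65528197-65528446, plus strand: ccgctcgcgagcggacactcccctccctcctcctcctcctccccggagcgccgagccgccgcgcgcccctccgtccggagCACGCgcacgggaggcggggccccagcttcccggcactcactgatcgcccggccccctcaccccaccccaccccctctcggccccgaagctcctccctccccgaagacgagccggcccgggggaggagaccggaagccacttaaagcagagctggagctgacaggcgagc
Mt1, chr8:94178839-94179088, plus strand: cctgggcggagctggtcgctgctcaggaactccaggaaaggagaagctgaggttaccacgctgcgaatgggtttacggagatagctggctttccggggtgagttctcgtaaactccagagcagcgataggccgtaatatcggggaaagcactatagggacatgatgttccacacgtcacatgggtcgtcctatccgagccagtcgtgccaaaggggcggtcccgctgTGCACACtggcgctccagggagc
Mt2, chr8:94172368-94172617, plus strand: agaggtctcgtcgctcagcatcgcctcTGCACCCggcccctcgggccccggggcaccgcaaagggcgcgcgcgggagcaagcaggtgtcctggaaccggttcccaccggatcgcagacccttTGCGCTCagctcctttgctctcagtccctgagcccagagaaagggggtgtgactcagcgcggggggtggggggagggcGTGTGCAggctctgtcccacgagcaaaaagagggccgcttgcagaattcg
Ahrr held 3 matches and Tiparp held 1. At least 1 match stood in 28.2% of the 32851 mouse promoters in the table and at least 3 in 2.8%. Mt1 held 1 match to the metal core and Mt2 held 3, against 21.4% of promoters with at least 1 and 1.3% with at least 3. A match is a run of letters and does not show that a factor binds there.

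Values are log2 signals relative to the array's own 75th percentile, so that 0 is the brightness of the spot at that percentile. The 75th percentile of the processed signal was 106.5 to 120.8 on the 5 control arrays and 91.52 to 130.3 on the 4 ptaquiloside arrays, and 54.27% to 60.85% of the spots of these 9 arrays were well above background. On the array of ptaquiloside mouse 4 the percentile was 10.49 and 36.25% of spots were above background. Over all genes its values correlated at 0.4513 to 0.5813 with the 9 others, which correlated at 0.9452 to 0.9881 among themselves. Each of the 5 slides held 1 mouse of each group under 1 mouse number, and a group always sat at the same place on the slide, so that treatment and place on the slide cannot be told apart. The replicates are mice, 5 control and 4 ptaquiloside, and not spots. With the dim array kept, 0 genes passed as well, but 39 of the 125 genes named from the rules and lists and 29 of the 48 list medians changed sign, so directions given here hold for the 9 arrays.

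No gene passed the test. Of 17169 genes, 0 had an adjusted p under 0.05 (0%) in limma's moderated test with the slide as a block and Benjamini-Hochberg adjustment, and the smallest adjusted p was 0.840. At an unadjusted p under 0.05, 197 genes were higher (1.15%) and 209 were lower (1.22%) in ptaquiloside mice. The 406 together (2.36%) are fewer than the 858 that as many independent tests without any difference would give. That near balance depends on the processing: at the same level 248 genes were higher and 167 lower with each array centred on its median, 509 higher and 75 lower with normexp background correction, and 30 higher and 246 lower in a test on the authors' deposited table. The median standard error was 0.21 on the log2 scale and 113 genes differed by more than 2-fold. The middle of the distribution lay at a log2 difference of 0.01, with 5% of genes below -0.49 and 5% above 0.35. What follows therefore describes levels and differences in these mice, none of which reached the threshold over all genes.

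**Figure D1:**
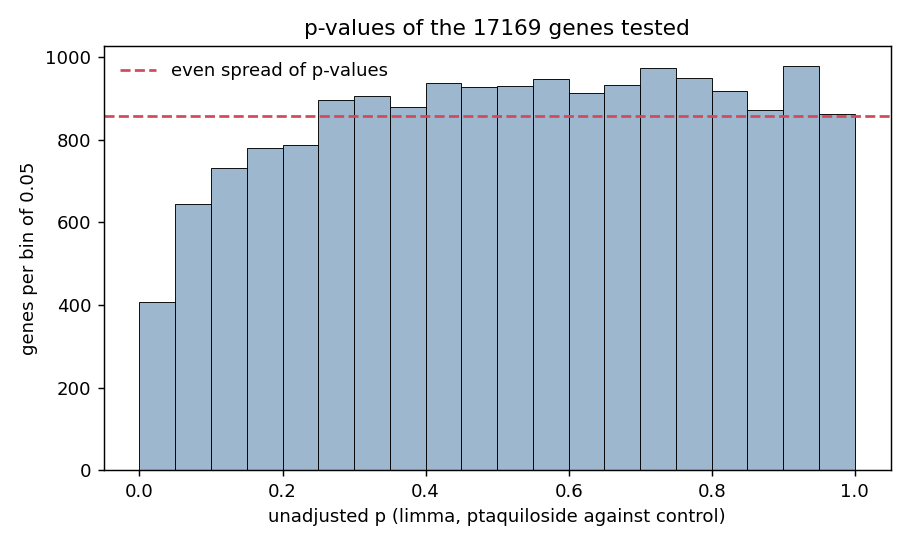
Unadjusted limma p-values of the 17169 genes for ptaquiloside against control, in bins of 0.05 (x axis, p; y axis, genes per bin). The lowest bin holds 406 genes, under the dashed line of 858 that evenly spread p-values would put in each bin.

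The separation of single mice gives the same picture on another scale. The lowest ptaquiloside mouse lay above the highest control mouse in 35 of 17110 genes with a value on all 9 arrays (0.205%), and the highest ptaquiloside mouse lay below the lowest control mouse in 39 (0.228%). Leaving out 1 mouse loosens that condition, and the counts became 50 higher without control 3 to 340 higher without ptaquiloside 2. Within slides 1, 2, 3 and 5, where each ptaquiloside mouse has a control mouse beside it, 1084 genes (6.31%) were higher on all 4 slides and 871 (5.07%) were lower on all 4.

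Among genes higher on all 4 slides and well above background on all 4 ptaquiloside arrays, the 15 with the smallest p were Dnah2, Ccno, Spint1, Gsdme, Tiparp, Hic1, Tcte3, Slc2a6, Clba1, Ern1, Acpp, Lrrc73, Ttc39b, Zfp652os and Hilpda. Their log2 differences ran from 0.43 to 1.94, and the rule that chose them fixed their direction. Ahrr had a smaller p than Tiparp but was above background on 3 of the 4 ptaquiloside arrays, and is described with its pathway. In 2 of the 15, Tiparp and Ern1, the groups did not overlap, beside 0.205% of all genes. Choice by small p favours such genes.

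Dnah2 encodes an axonemal dynein heavy chain, a motor of cilia and flagella, and had the smallest p. Its signal was 2.60, 1.40, 1.73, 1.67 and 2.48 in control mice 1 to 5 and 3.91, 2.52, 2.54 and 3.44 in ptaquiloside mice 1, 2, 3 and 5. The control mice on slides 1 and 5 were the highest of their group, and so were the ptaquiloside mice of the same slides, so the groups overlapped between slides while each ptaquiloside mouse exceeded the control mouse beside it by 0.80 to 1.31. The fitted log2 difference was 1.09 ± 0.19 (SE, 5 control and 4 ptaquiloside mice), or 2.13-fold, with an adjusted p of 0.840 in limma. The probe lies at chr11:69234323-69234382 (mm9), and 2 of the 3 probes for Dnah2 were higher. With the mean of all its probes the log2 difference was 0.27.

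Ccno, cyclin O, which multiciliated cells need to amplify their centrioles, stood second. Control mice read -0.41, -0.96, -1.68, -1.55 and -1.36, and ptaquiloside mice read 0.20, 0.14, -0.59 and -0.27. Only control 1 reached into the range of the ptaquiloside group. The log2 difference was 1.03 ± 0.19 (2.04-fold, adjusted p 0.894 in limma), or 0.51 with normexp, and the probe lies at chr13:113780810-113780869 (mm9). Tcte3, a dynein light chain of cilia and sperm tails, averaged -4.21 ± 0.77 (SD, n = 5) in control mice and -3.18 ± 0.65 (SD, n = 4) in ptaquiloside mice, close to background: 2 of the 5 control arrays had it above background. Its log2 difference of 0.90 ± 0.25 turned to -0.10 when the background was corrected by normexp.

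These 3 belong to a list of ciliary genes. Of 31 genes on the list 21 were measured, of which 15 were higher and 6 lower, where 52.1% of all genes had a difference above 0. The same 3 genes were higher at an unadjusted p under 0.05, and the median log2 difference was 0.15 against 0.01 over all genes, turning to -0.12 with normexp. Foxj1, the transcription factor that drives motile cilia, averaged 0.92 ± 0.61 (SD, n = 5) and 1.61 ± 0.48 (SD, n = 4), a log2 difference of 0.64 ± 0.34. The other measured dynein heavy chains on the list did not share the direction of Dnah2: Dnah1, Dnah5 and Dnah8 had log2 differences of -0.53 ± 0.40, -0.80 ± 0.46 and -0.42 ± 0.24. Of the 21 measured genes 16 were above background on all 9 arrays. Dnah5 was faint, at -5.00 in control mouse 2 and -3.84 in the nearest control mouse, and Dnah8 was -0.22 with normexp.

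Spint1 had the largest difference of the 15. It encodes a membrane-bound inhibitor of serine proteases such as matriptase and hepsin. Control mice read -1.72, -4.07, -3.20, -2.92 and -2.12, and ptaquiloside mice read 0.15, -0.78, -2.26 and -0.36. Ptaquiloside mouse 3 lay within the control range and the other 3 lay above it. The log2 difference was 1.94 ± 0.40 (3.84-fold, 95% interval 1.08 to 2.80 on the log2 scale, adjusted p 0.999 in limma), both probes were higher, and the one used lies at chr2:119074929-119074988 (mm9). With normexp the difference was 0.60, below that interval. St14, which encodes matriptase itself, ran from -1.02 to -0.77 in control mice and from -0.62 to -0.46 in ptaquiloside mice, with no overlap and a log2 difference of 0.31 ± 0.19. Among the 19 measured membrane proteases and inhibitors 9 were higher and 10 lower, and their median was -0.01, which became 0.06 with median centring and 0.05 with normexp.

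Gsdme encodes gasdermin E, a pore-forming protein that caspase 3 cleaves to turn apoptosis into lytic death. Its signal was -0.46, -1.28, -1.50, -0.80 and -0.48 in control mice and 0.64, 0.18, -0.49 and 1.07 in ptaquiloside mice. Ptaquiloside mouse 3 was again the one inside the control range, as it was for Spint1. The log2 difference was 1.25 ± 0.26 (2.37-fold, adjusted p 0.999 in limma), or 0.76 with normexp, with the probe at chr6:50157436-50157495 (mm9). Gsdmd, the gasdermin that inflammatory caspases cleave, averaged 2.71 ± 0.22 (SD, n = 5) and 2.84 ± 0.31 (SD, n = 4).

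**Figure D2:**
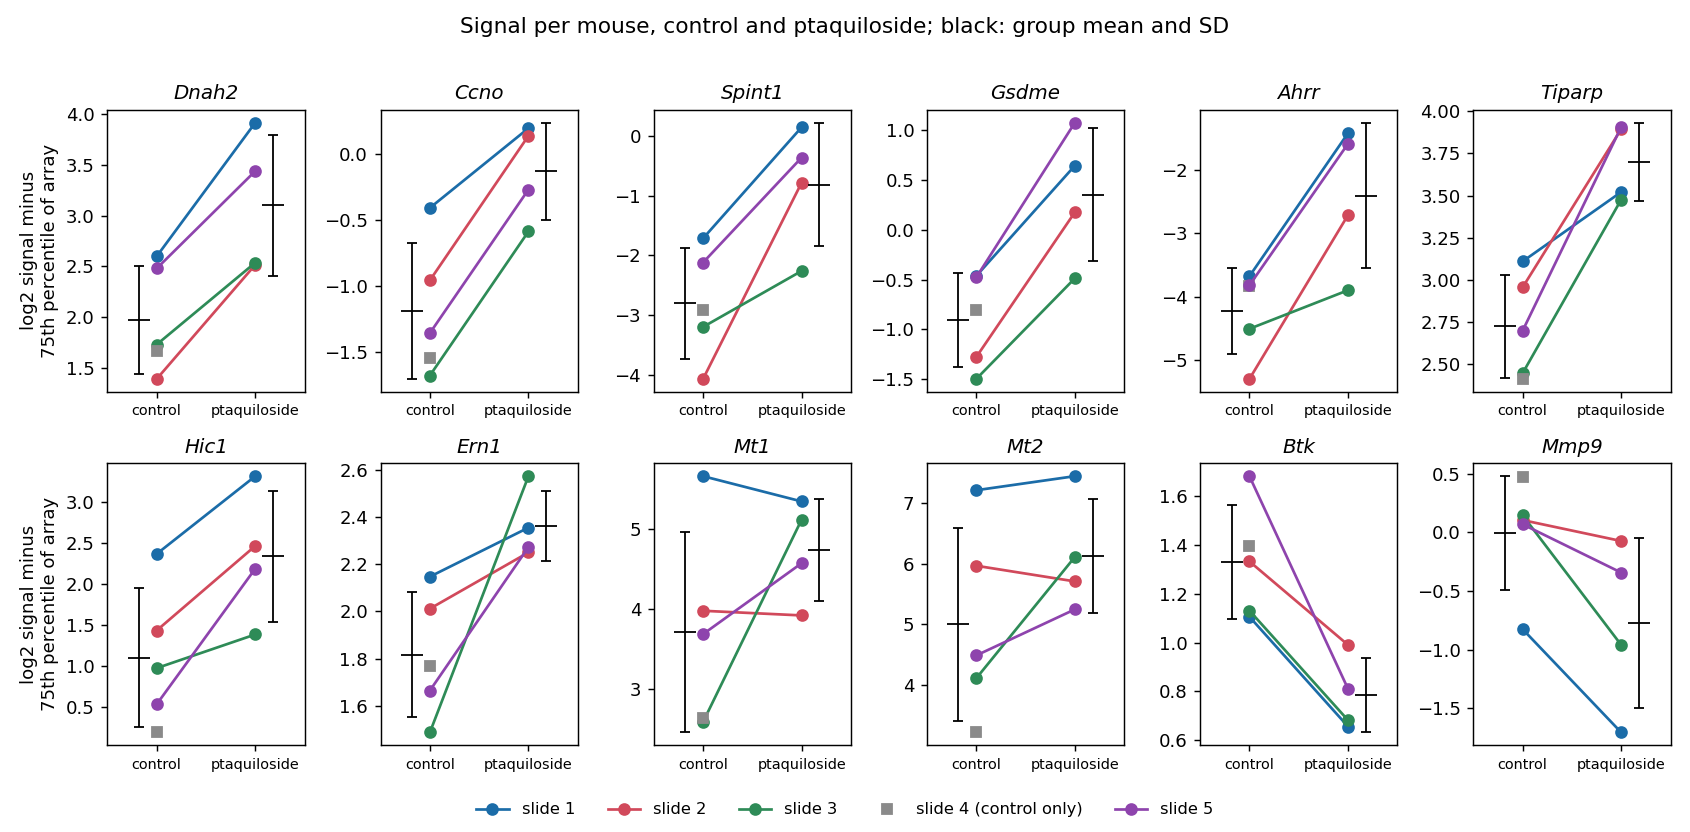
Log2 signal minus the array's 75th percentile (y axis) for 12 genes in control and ptaquiloside mice (x axis), 1 point per mouse, with lines joining mice on the same slide, a square for control mouse 4, which has no ptaquiloside partner, and black bars for the group mean and SD. Tiparp, Ern1 and Btk show no overlap between groups, and Mt1 and Mt2 differ mostly on slides 3 and 5.

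Of the aryl hydrocarbon receptor list, 6 of 12 genes were measured, and 4 of these were higher with a median of 0.24, which was 0.03 with normexp and 0.08 without control 5. Cyp1a1, Cyp1a2 and Cyp1b1, the classical detoxifying targets, were not among the genes above background on enough arrays. Ahr itself ran from 2.12 to 2.67 in control mice and from 1.61 to 2.48 in ptaquiloside mice, with mouse 1 lowest in each group and a log2 difference of -0.26 ± 0.14.

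Ahrr read -3.68, -5.30, -4.51, -3.83 and -3.82 in control mice and -1.43, -2.72, -3.90 and -1.59 in ptaquiloside mice. Ptaquiloside mice 1, 2 and 5 lay above all control mice and mouse 3 lay within their range; the spot was well above background on 3 of 5 control arrays and 3 of 4 ptaquiloside arrays. The log2 difference was 1.79 ± 0.38 (adjusted p 0.999 in limma), with the probe at chr13:74348566-74348612 (mm9), and it was 0.048 with normexp. Tiparp read 3.11, 2.96, 2.45, 2.41 and 2.70 in control mice and 3.52, 3.89, 3.48 and 3.91 in ptaquiloside mice, so every ptaquiloside mouse exceeded every control mouse. Its log2 difference was 0.93 ± 0.24 (1.91-fold, adjusted p 0.999 in limma), with the probe at chr3:65358749-65358808 (mm9).

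Nqo1, a quinone reductase under both this receptor and Nrf2, averaged -1.16 ± 0.38 (SD, n = 5) and -0.66 ± 0.27 (SD, n = 4), higher on all 4 slides by 0.16 to 1.02. The xenobiotic core shown in capitals in the Ahrr and Tiparp promoters was absent from the Nqo1 promoter window. It stood in at least 1 listed promoter of 11 of the 14 higher genes that had a promoter in the table (78.6%), of 4 of 13 of the 15 lower genes named further on (30.8%), and of 45.9% of all tested genes with a promoter. The metal core shown for Mt1 and Mt2 stood in 14.3% of the same higher genes, 38.5% of the lower genes and 31.8% of all tested genes. Both sets of 15 genes were picked from the data, so these shares carry no test.

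The study's own follow-up concerned metallothionein, and all 4 metallothionein genes had a difference above 0, with a median of 0.57 against 0.01 over all genes, although 1 of them, Mt4, turned to -0.02 with normexp. Mt1 read 5.67, 3.98, 2.59, 2.64 and 3.69 in control mice and 5.35, 3.92, 5.12 and 4.58 in ptaquiloside mice. Control mouse 1 was the highest of all 9. On slides 1 and 2 the ptaquiloside mouse was lower than its control, by 0.32 and 0.06 on the log2 scale, and on slides 3 and 5 it was higher by 2.53 and 0.89.

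Mt2 read 7.21, 5.97, 4.11, 3.22 and 4.49 in control mice and 7.44, 5.71, 6.11 and 5.25 in ptaquiloside mice. Here too the 2 groups overlapped widely, and slide 3 gave the largest gap, 2.00. The log2 differences were 0.79 ± 0.37 for Mt1 (probe at chr8:96704011-96704070, mm9) and 0.81 ± 0.36 for Mt2 (chr8:96697371-96697430, mm9), with unadjusted p-values of 0.051 and 0.040 and an adjusted p of 0.999 each in limma. Without ptaquiloside 3 they were 0.24 and 0.43, and the median of the 4 genes was 0.26. Mt3 averaged 0.85 ± 0.17 (SD, n = 5) and 0.92 ± 0.11 (SD, n = 4). Of 25 zinc and metal transport genes, 18 were higher with a median of 0.03, and 0 reached an unadjusted p under 0.05.

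The damage response list had a median slightly above that of all genes, 0.01. Of 30 measured p53 targets and checkpoint genes 22 were higher, beside 52.1% of all genes, with a median of 0.17 (0.08 without ptaquiloside 1). Within slides 1, 2, 3 and 5 the median was 0.24, 0.02, 0.35 and 0.16. With both compounds against selenium alone, 13 of the 30 were higher and the median was -0.01. Gadd45g and Plk3 were the 2 members higher at an unadjusted p under 0.05, as were 1.15% of all genes. Gadd45g, a stress sensor, read 4.73, 4.67, 4.00, 3.78 and 4.28 in control mice and 5.24, 4.74, 5.75 and 4.58 in ptaquiloside mice. Ptaquiloside mice 1, 2 and 3 lay above the highest control mouse, mouse 2 barely so. The log2 difference was 0.65 ± 0.25, or 0.28 without ptaquiloside 3. Cdkn1a, the p53 target that arrests the cell cycle, averaged 2.81 ± 0.56 (SD, n = 5) and 3.12 ± 0.21 (SD, n = 4) and was higher on 1 of 4 slides. Bbc3, a trigger of apoptosis, averaged 4.93 ± 0.67 (SD, n = 5) and 5.46 ± 0.50 (SD, n = 4).

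DNA repair genes, by contrast, sat on both sides of 0. Of 38 genes for the repair of alkylated bases and strand breaks 17 were higher and 21 lower, with a median of -0.04 that became 0.03 with median centring. In 1 member each way the groups did not overlap, beside 0.205% of all genes higher and 0.228% lower. Alkbh3, which reverses alkylation damage directly, ran from 1.17 to 1.35 in control mice and from 1.36 to 1.91 in ptaquiloside mice, a log2 difference of 0.25 ± 0.21 that was 0.065 without ptaquiloside 3. Lig3, the ligase that seals nicks in base excision repair, was lower in every ptaquiloside mouse: the control range was -3.49 to -2.93 and the ptaquiloside range -4.04 to -3.55. Its log2 difference was -0.45 ± 0.15 (adjusted p 0.999 in limma), and it was above background on 3 of the 4 ptaquiloside arrays. Parp1, which signals strand breaks, averaged 1.29 ± 0.09 (SD, n = 5) and 1.07 ± 0.31 (SD, n = 4), with ptaquiloside mouse 5 far under the others at 0.61. Mpg, the glycosylase that removes alkylated purines, averaged 1.34 ± 0.22 (SD, n = 5) and 1.62 ± 0.24 (SD, n = 4).

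The endoplasmic reticulum stress and amino acid response list had 26 of its 30 measured genes above 0 and a median of 0.22, or 0.12 without ptaquiloside 1. Over all genes 52.1% were above 0. The median within slides was 0.44 on slide 1 and 0.08 to 0.13 on slides 2, 3 and 5. With both compounds against selenium alone, 11 of the 30 were higher and the median was -0.06. Ern1, Creld2 and Trib3 were higher at an unadjusted p under 0.05, as were 1.15% of all genes. Ern1, the sensor that splices Xbp1 mRNA when unfolded proteins accumulate, read 2.15, 2.01, 1.49, 1.77 and 1.66 in control mice and 2.36, 2.25, 2.57 and 2.27 in ptaquiloside mice, without overlap. Its log2 difference was 0.54 ± 0.17 (adjusted p 0.999 in limma), with the probe at chr11:106258948-106259007 (mm9). Creld2, an unfolded-protein target, ran from 3.50 to 4.00 in control mice and from 3.90 to 4.65 in ptaquiloside mice, and Trib3, a pseudokinase induced by Atf4, averaged 0.68 ± 0.62 (SD, n = 5) and 1.13 ± 0.21 (SD, n = 4). Hspa5, the main chaperone of the compartment, and Ddit3 had log2 differences of 0.26 ± 0.15 and 0.53 ± 0.30.

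Antioxidant genes did not stand apart as a list: 18 of 35 were higher and the median was 0.00, or -0.05 with quantile normalization. Osgin1 and Srxn1 were higher at an unadjusted p under 0.05. Osgin1 read 2.35, 1.83, 1.86, 2.32 and 2.29 in control mice and 2.90, 2.18, 3.78 and 2.87 in ptaquiloside mice, and Srxn1, the sulfiredoxin that repairs peroxiredoxins, averaged 2.86 ± 0.29 (SD, n = 5) and 3.56 ± 0.70 (SD, n = 4). In both genes ptaquiloside mouse 3 was the highest. The same mouse was highest for Hmox1, heme oxygenase, at 5.14 against 1.88 to 3.49 in the other ptaquiloside mice, and without it the log2 difference of Hmox1 went from 0.51 to -0.26. Selenoproteins, a list that matters for the selenium groups of the series, had 11 of 26 members above 0 and a median of -0.02, which became 0.05 with median centring and 0.07 with normexp.

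Among immediate early genes, which respond within minutes to handling as well as to receptor signals, 20 of 25 were higher with a median of 0.27, or 0.07 without ptaquiloside 3, and 0 reached an unadjusted p under 0.05. Zfp36, which destabilises cytokine mRNAs, ran from 4.46 to 5.38 in control mice and from 5.47 to 5.58 in ptaquiloside mice. It was the 1 member whose groups did not overlap, beside 0.205% of all genes in that direction. Fos and Jun had log2 differences of 0.49 ± 0.27 and 0.50 ± 0.29. Without ptaquiloside 3 that of Jun was 0.025. On slides 1, 2, 3 and 5 Fos differed by 0.32, 0.05, 1.37 and -0.17. Of 17 glucocorticoid receptor and target genes 13 were higher with a median of 0.16. Tsc22d3, the leucine zipper induced by glucocorticoids, averaged 4.24 ± 0.71 (SD, n = 5) and 4.96 ± 0.70 (SD, n = 4). The ptaquiloside mouse differed from its control by 0.07, 0.14, 2.23 and -0.13 on slides 1, 2, 3 and 5.

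Among the genes of the killing machinery, perforin and granzyme B overlapped widely between groups. Of 21 cytotoxic effectors 13 were higher and the median was 0.08, which was -0.04 without ptaquiloside 5; the 1 member with an unadjusted p under 0.05 was Gsdme. Perforin, Prf1, read 5.97, 5.88, 5.62, 5.40 and 4.90 in control mice and 5.28, 6.05, 5.34 and 5.78 in ptaquiloside mice. Gzmb read 7.27, 6.82, 6.76, 6.44 and 6.11 in control mice and 7.01, 6.89, 6.71 and 6.68 in ptaquiloside mice. Apart from ptaquiloside mouse 2 for Prf1, all ptaquiloside mice lay inside the control range, and the log2 differences were 0.08 ± 0.29 and 0.16 ± 0.22.

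Among NK cytokines and chemokines 11 of 19 were higher with a median of 0.07. Ifng read 6.38, 6.45, 5.19, 4.49 and 4.65 in control mice and 6.42, 6.53, 5.44 and 5.44 in ptaquiloside mice, so mice 1 and 2 were high in both groups. The ptaquiloside mouse was higher on all 4 slides, by 0.04 to 0.79, and the log2 difference was 0.34 ± 0.17. Tnf averaged 3.58 ± 0.56 (SD, n = 5) and 4.39 ± 1.13 (SD, n = 4), with ptaquiloside mouse 3 at 6.08. Ccl5, a chemokine that attracts T cells and monocytes, ran from 8.85 to 9.14 in control mice and from 9.07 to 9.49 in ptaquiloside mice.

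Receptor lists were close to the background as well. The inhibitory and activating Ly49 receptors had 9 of 12 members higher with a median of 0.07, and the NKG2, CD94 and NKR-P1 receptors had 9 of 14 higher with a median of 0.11. Klrk1, the activating receptor NKG2D, averaged 2.88 ± 0.45 (SD, n = 5) and 3.28 ± 0.26 (SD, n = 4). The slides disagreed here: the Ly49 median was -0.61 on slide 1 and 0.51 on slide 5. Genes of NK maturation and trafficking had 27 of 33 members lower and a median of -0.10, which turned to 0.03 with normexp and to 0.06 without ptaquiloside 3.

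Transcription factors of the lineage included 20 of 28 that were higher, with a median of 0.10. Irf8, needed for NK cell expansion, was the member with an unadjusted p under 0.05: control mice read 8.14, 7.95, 7.85, 7.64 and 7.48, and ptaquiloside mice read 8.22, 8.11, 8.07 and 8.16. Ptaquiloside mice 1 and 5 exceeded the highest control mouse and mice 2 and 3 lay just under it, and the log2 difference was 0.31 ± 0.13. Interferon-stimulated genes had 24 of 35 members higher and a median of 0.11, which was -0.02 without ptaquiloside 1. Rsad2, an antiviral enzyme, averaged 0.92 ± 0.60 (SD, n = 5) and 1.55 ± 0.99 (SD, n = 4).

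Proliferation genes were on the low side. Of 42 cell cycle and replication genes 33 were lower, with a median of -0.20 against 0.01 over all genes, and the median was below 0 on each of the 4 slides (-0.43 to -0.07). It was -0.05 without control 2, -0.07 without control 5 and -0.09 without ptaquiloside 1, and 0 members reached an unadjusted p under 0.05. Ccnb2, a mitotic cyclin, read 1.76, 2.42, 1.09, 0.52 and 0.86 in control mice and 0.95, 1.81, 0.79 and 0.34 in ptaquiloside mice. Mouse 2 was highest in each group, and the log2 difference was -0.42 ± 0.32. Ckap2l, a mitotic spindle protein that was not on the list, was 1 of the 15 lower genes at -0.62 ± 0.21, and Bub1b, a spindle checkpoint kinase, stood at -0.35 ± 0.28.

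Metabolic and housekeeping lists differed little. The medians were 0.05 for oxidative phosphorylation (22 of 33 higher), -0.05 for glycolysis (10 of 26 higher), 0.04 for the proteasome (22 of 31 higher) and 0.07 for the cytosolic ribosome (28 of 34 higher). The signs of small medians depend on scaling: glycolysis turned to 0.02 with median centring and to 0.10 with normexp, and the ribosome to -0.06 and the proteasome to -0.003 with quantile normalization. In the insulin and PI3K-mTOR list, 18 of 30 were higher with a median of 0.03. Pik3r1, the regulatory subunit of PI3 kinase, read 4.13, 3.45, 3.27, 3.41 and 3.33 in control mice and 4.26, 3.89, 3.91 and 3.78 in ptaquiloside mice, with control mouse 1 alone inside the ptaquiloside range. Insr, the insulin receptor, ran from -3.46 to -3.15 in control mice and from -4.05 to -3.58 in ptaquiloside mice, without overlap. It was faint, above background on 3 of the 4 ptaquiloside arrays.

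**Figure D3:**
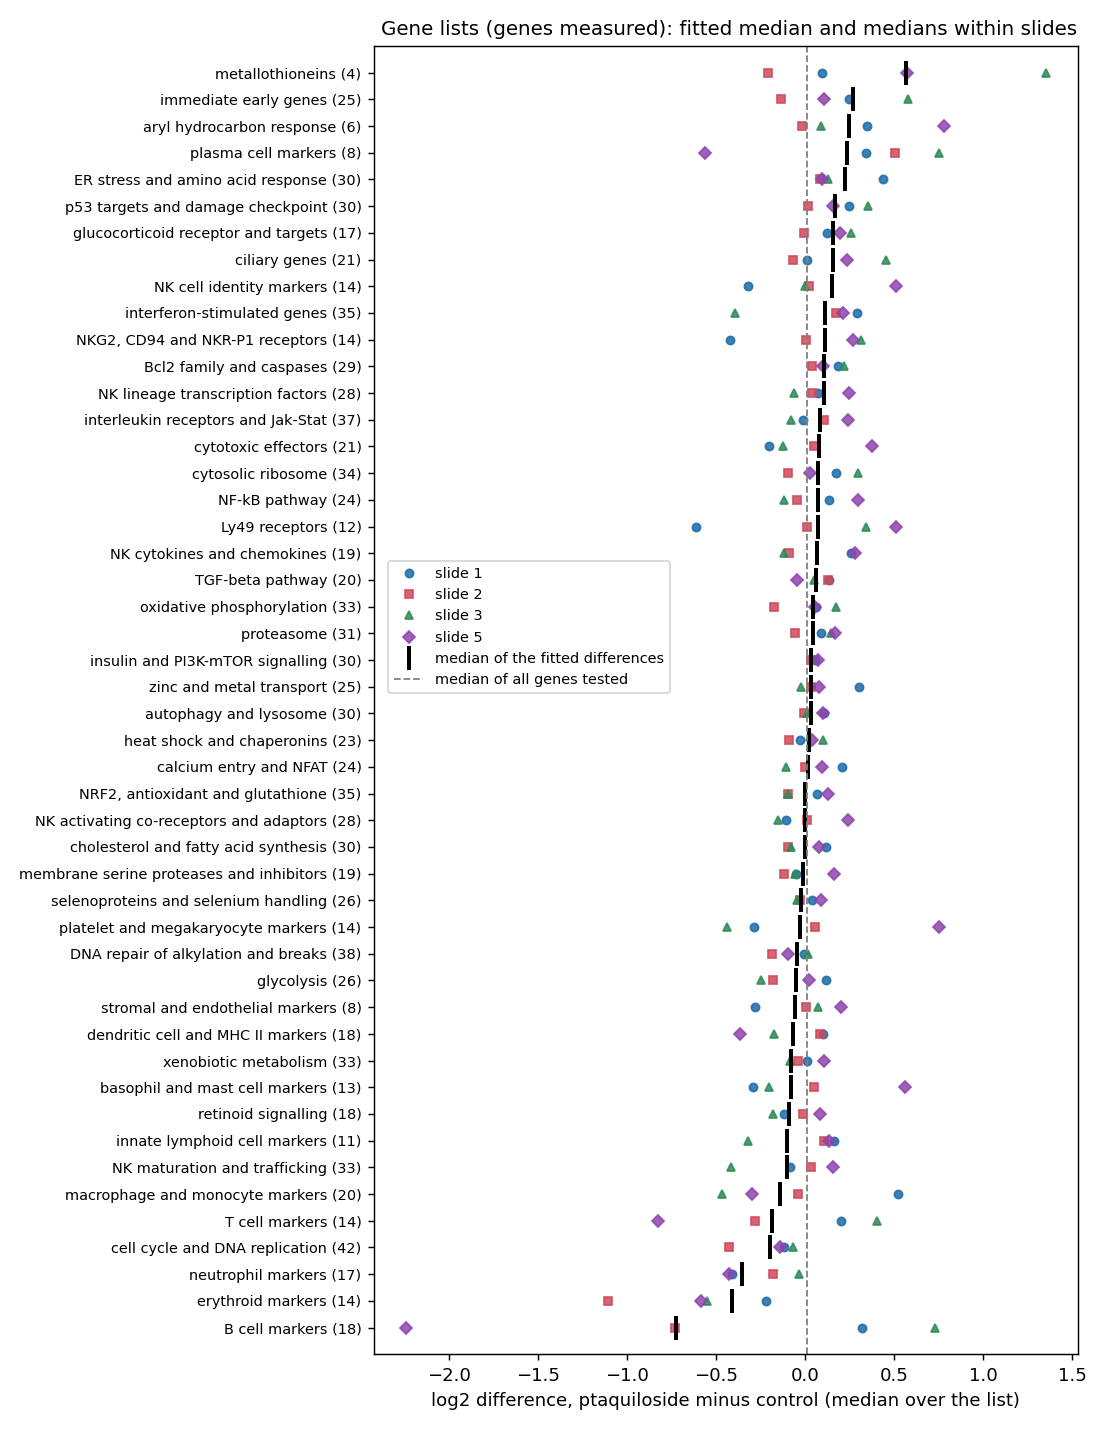
Median log2 difference, ptaquiloside minus control (x axis), of each of 48 gene lists (y axis, genes measured in brackets). Black bars are medians of the fitted differences, coloured symbols the medians within slides 1, 2, 3 and 5, and the dashed line the median of all genes, 0.01; metallothioneins are at the top (0.57) and B cell markers at the bottom (-0.72), with slides on both sides of 0.

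Over the 36 pathway lists, 27 medians were above 0. Of the 1034 distinct list genes measured, 31 had an unadjusted p under 0.05, beside 2.36% of all genes. The lists were drawn up with earlier results of these data known, and the 17169 genes carry no called gene, so no list is singled out from these counts.

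Of the other genes among the 15 higher, Hic1, a transcriptional repressor lost in many tumours, read 2.36, 1.43, 0.98, 0.20 and 0.54 in control mice and 3.31, 2.46, 1.39 and 2.19 in ptaquiloside mice. The order of the slides was nearly kept in both groups, and the log2 difference was 1.05 ± 0.28 (2.08-fold, adjusted p 0.999 in limma). Asb2, a ubiquitin ligase subunit that responds to retinoic acid like Hic1, stood at -0.37 or lower in every control mouse and at -0.25 or higher in every ptaquiloside mouse. The retinoid list that holds both had 6 of 18 members higher and a median of -0.09. Slc2a6, a glucose transporter of the lysosome, averaged 4.64 ± 0.44 (SD, n = 5) and 5.15 ± 0.32 (SD, n = 4). Hilpda, a hypoxia-inducible lipid droplet protein, averaged 3.78 ± 0.49 (SD, n = 5) and 4.30 ± 0.40 (SD, n = 4).

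Several of the 15 were faint. Clba1, Acpp and Lrrc73 averaged -2.67, -1.91 and -2.59 in control mice and -2.03, -1.22 and -2.14 in ptaquiloside mice, and Ttc39b averaged 0.27 and 0.85. Zfp652os, an antisense transcript, was above background on 0 of 5 control arrays and all 4 ptaquiloside arrays. With each control value raised to at least the faintest signal above background on its array, the ptaquiloside mean was 1.63-fold higher. That value is not a lower limit. With normexp the log2 differences of Lrrc73 and Zfp652os turned to -0.06 and -0.14, that of Clba1 went from 0.59 to 0.0091 and that of Acpp from 0.76 to 0.16.

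Among genes lower on all 4 slides and well above background on all 5 control arrays, the 15 with the smallest p were Tlr5, Btk, Kcne3, Mmp9, Agtpbp1, Neto2, Smim1, Lig3, Nsf, Ckap2l, Tbc1d16, Eef1aknmt, Mycn, Poglut2 and Bcl11a. Their log2 differences ran from -1.16 to -0.39, and the rule that chose them fixed their direction. In 5 of them, Tlr5, Btk, Lig3, Eef1aknmt and Bcl11a, the groups did not overlap, beside 0.228% of all genes. Choice by small p favours genes without overlap, so this count carries no test. All had an adjusted p of 0.999 in limma.

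Tlr5, the receptor for bacterial flagellin, read -2.37, -2.37, -2.10, -2.46 and -2.16 in control mice and -2.87, -2.66, -3.09 and -2.67 in ptaquiloside mice. The gap between the groups, from -2.46 to -2.66, was wider than the control SD of 0.16, and the log2 difference was -0.56 ± 0.15. Btk, the kinase that signals below the B cell receptor and in myeloid cells, read 1.11, 1.33, 1.13, 1.40 and 1.68 in control mice and 0.66, 0.99, 0.68 and 0.81 in ptaquiloside mice. Each ptaquiloside mouse lay below every control mouse, and the log2 difference was -0.60 ± 0.18 (probe at chrX:131077061-131077120, mm9).

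Mmp9, a gelatinase stored by neutrophils, read -0.83, 0.10, 0.15, 0.47 and 0.07 in control mice and -1.71, -0.07, -0.96 and -0.34 in ptaquiloside mice, with mouse 1 lowest in each group. Its log2 difference was -0.70 ± 0.22. Smim1, which carries a red cell blood group, had the largest difference of these 15, -1.16 ± 0.39, but was near background: it was above it on all 5 control arrays and on 2 of 4 ptaquiloside arrays, and 1 of its 2 probes was higher, so that the mean of both gave -0.43. Without ptaquiloside 1 it was -0.74. Bcl11a, a transcription factor of B cells and erythroid precursors, ran from 0.02 to 0.47 in control mice and from -0.47 to -0.11 in ptaquiloside mice.

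Nsf, the ATPase that recycles vesicle fusion complexes, averaged 2.64 ± 0.21 (SD, n = 5) and 2.26 ± 0.30 (SD, n = 4). Eef1aknmt, a methyltransferase of elongation factor 1A, averaged -2.43 ± 0.19 (SD, n = 5) and -2.99 ± 0.25 (SD, n = 4), and Mycn averaged -1.89 ± 0.24 (SD, n = 5) and -2.52 ± 0.41 (SD, n = 4). The remaining lower genes, Kcne3, Agtpbp1, Neto2, Tbc1d16 and Poglut2, had log2 differences between -0.68 and -0.39. Among the 30 genes, the probes of 4 with several probes disagreed in direction, namely Dnah2, Ttc39b, Agtpbp1 and Smim1.

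Several of the lower genes are also expressed by cells other than NK cells, so markers of those cells were read beside them. In bulk samples, fewer cells of a type and less RNA per cell cannot be told apart. The labelled cell type was present: all 14 NK identity markers were above background on all 9 arrays, their summed signal, in units of the array's 75th percentile, was 595 to 956 in control mice and 714 to 901 in ptaquiloside mice, and 12 of 14 were higher with a median of 0.15, which was -0.03 without ptaquiloside 5.

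B cell markers were lower in 16 of 18 genes with a median of -0.72, and 14 of the 18 were above background on all 9 arrays. Their summed signal was 86.0, 65.8, 52.7, 65.5 and 118 in control mice and 142, 46.3, 85.1 and 25.8 in ptaquiloside mice. The ptaquiloside group thus held both the highest and the lowest mouse: within slides the median was 0.32, -0.73, 0.73 and -2.24 on slides 1, 2, 3 and 5, and over all slides it was -0.33 without ptaquiloside 5, -0.36 without control 5 and -1.09 without control 3. Ms4a1, the B cell antigen CD20, read 3.02, 2.92, 2.55, 2.36 and 3.44 in control mice and 3.34, 1.90, 2.51 and 0.14 in ptaquiloside mice. Btk is itself on this list, as the 1 member whose groups did not overlap, beside 0.228% of all genes in that direction. The part of B cells in the difference of Btk was not tested.

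Neutrophil markers were lower in 17 of 17 measured genes, with a median of -0.36, and 2 of them, Mmp9 and Retnlg, at an unadjusted p under 0.05. Their summed signal was 281 to 542 in control mice and 242 to 413 in ptaquiloside mice, and the median within slides was -0.41, -0.18, -0.03 and -0.43. Over all slides it was -0.20 without control 5, -0.23 without ptaquiloside 5 and -0.15 with normexp. Mmp9 is itself on this list, and the part of neutrophils in its difference was not tested. Retnlg, a secreted neutrophil protein, read 4.57, 5.68, 5.44, 5.28 and 5.03 in control mice and 3.45, 5.72, 3.72 and 4.88 in ptaquiloside mice.

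Erythroid markers were lower in 13 of 14 measured genes with a median of -0.41, and within slides the median ran from -1.11 to -0.22. It was -0.26 without control 2 and -0.64 without control 3. Their summed signal was 28.7 to 50.1 in control mice and 29.5 to 52.8 in ptaquiloside mice. Klf1, the erythroid master regulator, read -3.06, -1.30, -2.23, -4.26 and -3.13 in control mice and -3.48, -3.24, -5.08 and -4.21 in ptaquiloside mice. These signals are faint, and the log2 difference of Klf1 went from -1.26 to -0.50 with normexp. Car1, a red cell carbonic anhydrase, averaged 2.35 ± 0.94 (SD, n = 5) and 1.40 ± 0.97 (SD, n = 4). Whether erythroid RNA takes part in the difference of Smim1 was not tested.

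The remaining markers gave no common direction over slides. T cell markers were lower in 11 of 14 genes with a median of -0.19, from -0.82 on slide 5 to 0.41 on slide 3, and macrophage and monocyte markers were lower in 14 of 20 with a median of -0.14. Mrc1, the mannose receptor, was the macrophage gene with an unadjusted p under 0.05, and its lowest value, -5.99, was in ptaquiloside mouse 3. Its log2 difference went from -1.20 to -0.34 with normexp. Plasma cell markers were higher in 7 of 8 genes with a median of 0.24.

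The effect of ptaquiloside could also be read in the mice that received selenium, by setting both compounds against selenium alone (5 mice each). These 10 arrays share no mouse with the 9 above, only slides and the fit. Of 17169 genes, 0 passed in that comparison (0%) and 49.8% had a difference above 0. Of the 15 higher genes 4 were also higher there, with a median log2 difference of -0.17 against 0.90 without selenium. Of the 15 lower genes 12 were also lower, with a median of -0.09 against -0.60.

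In single genes the contrast between these pairs of groups was wide. Spint1 averaged -2.81 in control and -0.82 in ptaquiloside mice, but -0.42 in selenium mice and -0.58 in mice given both, so the mice with selenium alone stood at the level of the ptaquiloside mice. Gsdme averaged -0.90 and 0.35 without selenium and 0.30 and 0.48 with it. For Dnah2 the log2 difference was 1.09 ± 0.19 without selenium and 0.12 ± 0.17 with it, where the means were 2.82 and 2.93. The means of Ccno were -1.19 and -0.13 against -0.07 and -0.26, and those of Ahrr -4.23 and -2.41 against -2.48 and -2.39. In these 5 genes the control mice were the low group of the 4. These genes are shown for their differences from the same control mice, a choice that favours a low control mean.

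Hic1 went the other way with selenium: it averaged 2.99 in selenium mice and 2.19 in mice given both, lower on all 5 slides, a log2 difference of -0.80 ± 0.26. Mt1 averaged 4.07 in selenium mice and 3.86 in mice given both, and Mt2 5.59 and 5.22, each with 2 of 5 slides higher. Mmp9 was lower in both comparisons, by -0.70 ± 0.22 and by -0.75 ± 0.20 on the log2 scale. Cell cycle genes were also lower in both, with medians of -0.20 and -0.30. B cell markers were not: their median was -0.72 without selenium and 0.71 with it, where 18 of 18 were higher. Interferon-stimulated genes went from 24 of 35 higher (median 0.11) to 0 of 35 (median -0.55). NK identity markers went from 12 of 14 higher (median 0.15) to 0 of 14 (median -0.12).

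The difference between these effects was tested for every gene as an interaction. Of 17169 genes, 0 passed (0%), and 717 (4.18%) had an unadjusted p under 0.05. For Spint1 the interaction was 2.11 ± 0.55 on the log2 scale and for Hic1 1.85 ± 0.38, each with an adjusted p of 0.972 in limma. The 30 genes were picked for their difference without selenium, which is one side of this contrast, so their interactions are not independent of that choice.

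**Figure D4:**
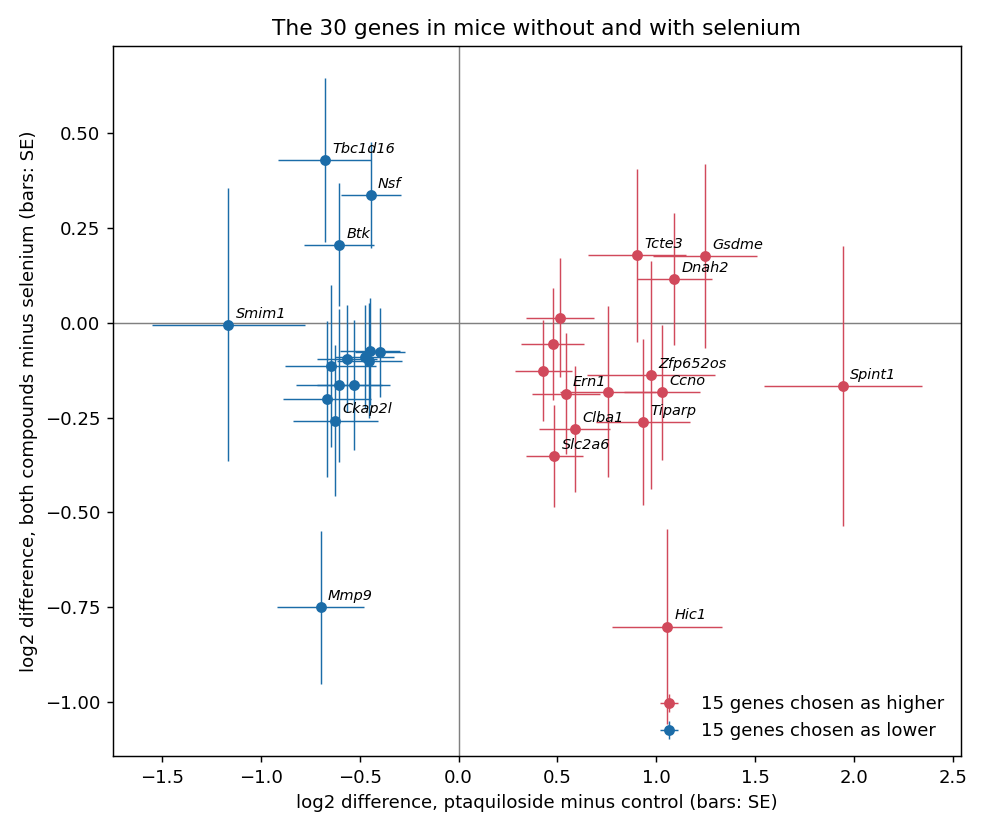
Log2 difference of ptaquiloside minus control (x axis) against both compounds minus selenium (y axis) for the 15 genes chosen as higher (red) and the 15 chosen as lower (blue), with bars for standard errors; the x axis was used to choose the genes. Of the red genes 4 lie above 0 on the y axis, and Hic1 (-0.80) and Mmp9 (-0.75) lie lowest.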

How the data were processed

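RNA of splenic NK cells was labelled with Cy3 and hybridised to single-colour Agilent arrays, 1 per mouse. Per the submitters' processing notes, the deposited files come from Agilent Feature Extraction 9.5.3.1. The intensity used is the processed signal, which per the file headers is background-subtracted and carries no scaling across arrays. Columns of unit other are flags and names, per the file headers. The authors' deposited table holds log2 values in which the last control and the last ptaquiloside column equal the mean of the other columns of the group; these were not used, and its columns of single mice entered as an alternative.

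Here, control and outlier spots were left out, spots of a probe were averaged, and the log2 signal minus the 75th percentile was taken. Probes well above background on 5 or more of 20 arrays were kept. Of 41174 probes 25255 were named by accession, 6239 by symbol and 1602 by synonym; 8078 kept the file's name. The brightest probe stood for a gene. Limma 3.58.1 (statmod 1.5.0, data.table version 1.17.8, R 4.3.3) fitted 4 group means to 19 arrays with the slide as a fixed block, two-sided, adjusted over 17169 genes at 0.05; 139 values were missing. A standard error is the fit's, an SD is over mice, and a log2 difference is the fit's and so allows for slides. The difference between mean signals can differ from it. Fits were tested on simulated data.

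Slide and mouse number coincide. Deviations of same-numbered mice of different groups correlated at a median of 0.4366 (24 of 27 pairs above 0.1), and all 4 control and ptaquiloside pairs exceeded 0.1 (0.3217 to 0.5211). Mice were paired by this number, and what they share beyond the slide is not given in the sources used here. Mice were different donors, per the labels.

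Named are the 15 genes with the smallest p in each direction that are above background on every array of the higher group, lie on the same side on all 4 slides and have a symbol, then 9 genes set by name (Mt1, Mt2, Mt3, Mt4 and Ahrr, and Spint1, Gsdme, Ccno and Btk, which are also among the 30), and from each list up to 5 members by p or by role. St14, Asb2 and Alkbh3 were added for lack of overlap, after their values were seen. The members and the 48 lists (1181 entries, 1099 measured) were chosen with earlier results of these data known. Probe positions are mm9, from the files; promoters are GRCm38.p6. Exons and introns were not annotated, and probe sequences are not printed. Alternatives were the block, the arrays fitted, background correction, scaling, filters, probes per gene, single mice left out, the methods' t-test and the values deposited by the authors.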

Additional observations from a re-analysis of the deposited data

Results flagged for a closer look

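In 125 genes named from the lists and rules, the highest or lowest mouse of a group was compared with its nearest neighbour by Dixon's ratio. Of 250 groups 15 had a mouse that stood apart, and chance gives about 1 in 20. Among ptaquiloside mice, mouse 5 stood apart for Acpp (-0.60, nearest -1.37), Plk3 (2.90, nearest 3.51) and Parp1 (0.61, nearest 1.20). Mouse 3 stood apart for Tnf (6.08, nearest 3.91), Klrk1 (3.67, nearest 3.19), Alkbh3 (1.91, nearest 1.45) and Nqo1 (-1.07, nearest -0.54). Mouse 2 did so for Kcne3 (-2.68) and Mycn (-1.91), the highest of its group in both, and mouse 1 for Bmf (3.51, nearest 2.38), a trigger of apoptosis, and Ahr (1.61). Among control mice, mouse 1 stood apart for Ahr (2.12, the lowest, as on the ptaquiloside side of the same slide) and Pik3r1 (4.13), and mouse 2 for Mt3 (1.14) and Dnah5 (-5.00, the lowest).

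In 8 genes every slide gave one direction without selenium and the opposite with it. The log2 difference of both compounds against selenium was -0.80 for Hic1, -0.35 for Slc2a6, -0.28 for Clba1, -0.56 for Nqo1, -0.50 for Trib3, -0.40 for Ifng and -0.20 for Irf8, where ptaquiloside mice were higher than control mice on all 4 slides. It was 0.65 for Insr, where they were lower on all 4, though Insr was faint, above background on 3 of the 4 ptaquiloside arrays. The interaction that tests the difference had an adjusted p of 0.972 in limma for each of the 8, and the choice of these genes by opposite directions was not tested itself.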

How the results depend on the processing

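The count of 0 genes passing held under all 22 alternatives; at an unadjusted p under 0.05 the count ran from 248 (without control 3) to 918 (without ptaquiloside 2), and was 652 without ptaquiloside 5, 584 with normexp and 253 with no replicate block. The methods' t-test gave 296 genes unadjusted, 27 of them beyond 2-fold, and 0 after Benjamini-Hochberg. In the 19 alternatives that hold all 4 groups, 0 interactions passed, with 332 (normexp), 357 (ptaquiloside 4 kept) and 392 (no replicate block) against 717 unadjusted. Genes without overlap, 35 higher and 39 lower, became 10 and 9 with ptaquiloside 4 kept and 68 and 25 with median centring; normexp gave 117 higher. The block changed no call. Control 1 left out as well, without a block, was added after seeing the data and gave 433 genes unadjusted.

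Of 125 genes, 46 changed sign under at least 1 alternative. Keeping the dim array turned 39, and 29 of 48 list medians: Abcb1b -0.22, Bax -0.41, Ccng1 -0.085, Cd69 -0.44, Cdkn1a -0.30, Cxcr2 0.039, Ddit3 -0.21, Dnah1 0.20, Dnajb11 -0.29, Errfi1 -0.37, Fos -0.65, Ftl1 -0.30, Gbp2 -0.16, Gsdmd -0.36, Gzma -0.66, Gzmb -0.44, Hilpda -0.15, Hspa5 -0.56, Ier2 -0.39, Il2rb -0.050, Irf8 -0.0039, Kit -0.79, Klrc1 -0.70, Klrd1 -0.15, Mdm2 -0.69, Ncr1 -0.091, Pik3r1 -0.29, Prf1 -0.23, Rptor -0.12, Slc2a6 -0.089, Stat5a -0.017, Tlr5 0.087, Tnf -0.13, Trib3 -0.086, Tsc22d3 -0.58, Ttc39b -0.038, Tyrobp -0.034, Xbp1 -0.55 and Zfp36 -0.21. With single mice left out, Gzma ran from -0.042 to 0.30, Gzmb from -0.028 to 0.27 and Prf1 from -0.24 to 0.31, each lowest without ptaquiloside 5. Hmox1 ran from -0.26 (without ptaquiloside 3) to 1.15, and Mt3 from -0.018 (without control 5) to 0.14. Normexp turned Lrrc73 (-0.059), Mt4 (-0.018), Tcte3 (-0.10) and Zfp652os (-0.14), and the filter on all 19 arrays turned Smim1 (0.31), through its other probe. Other causes were not tested. Spots near background carry the least certain differences, and 4 ptaquiloside mice leave a median standard error of 0.21.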
